A study of Homo sapiens with 12 samples.

Results

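The myeloma line INA-6 was compared with the myeloma lines MM.1S and MM.1R after each had been cultured with bone marrow stromal cells. The arrays were chosen by their titles. The comparison took the 2 INA-6 coculture arrays and the 4 MM.1 coculture arrays, 6 of the 12 arrays of the series, and gave the 2 MM.1 lines equal weight. The study measured gene expression on Affymetrix U133 Plus 2.0 arrays in these 3 human cell lines, each of which stably carried green fluorescent protein (GFP). Before RNA was taken each line spent 24 h either together with HS-5 cells, bone marrow stroma of human origin that lacked GFP, or alone, and GFP-positive cells were then collected by cell sorting. The groups used here were INA-6 in coculture (2 arrays), MM.1S in coculture (2 arrays) and MM.1R in coculture (2 arrays). The 6 arrays of the same lines kept alone, 2 per line, served as a second set of arrays on which to look for the same differences. The series text calls the duplicates technical replicates, so every p-value below measures only the spread between duplicate arrays, and each cell type is represented by 1 line, or by 2 lines of which one descends from the other.

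INA-6 is a myeloma line that grows only with interleukin 6 (IL-6). MM.1S came from another patient and responds to dexamethasone, and MM.1R is its dexamethasone-resistant derivative. Myeloma cells are malignant plasma cells: they keep a single immunoglobulin heavy chain and a single light chain, kappa or lambda, and usually carry an early lesion that raises one of the D-type cyclins. MM.1S carries a translocation that places MAF, a transcription factor that switches on CCND2 and the integrin gene ITGB7, beside the immunoglobulin heavy chain locus.

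Levels are the deposited intensities of a probe set on a linear scale. They are compared between arrays and never between genes. The difference of a gene is its log2(intensity + 5) in INA-6 minus the mean of that in MM.1S and MM.1R, so a positive value means higher in INA-6. Adding 5 shrinks the difference of dim probe sets. A gene was called higher or lower when limma's moderated test gave an adjusted p (Benjamini-Hochberg over 13275 genes tested) under 0.05. Median intensities of the coculture arrays lay between 20.69 and 23.05.

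The labels were checked first. NR3C1, the glucocorticoid receptor, had 476 and 481 in INA-6, against 934 and 953 in MM.1S and 558 and 498 in MM.1R. The MM.1S arrays were the highest, and INA-6 lay below the lower MM.1R array. All 13 measured plasma cell markers lay above the array median on each of the 6 arrays. The list holds 14 genes, and CD27 was not among those tested. The filter kept only probe sets above the array median on at least 2 of the 6 arrays, so this count was partly fixed beforehand. The T cell, NK cell and myeloid list holds 30 genes, of which 27 had a probe set of their own. Only 14 passed the filter, so the counts below leave out the dimmer members. Of these 14 markers, 4 lay below the median on each INA-6 array, against 2 to 4 on the MM.1 arrays. Their summed intensity was 418.6 to 439.3 in INA-6 and 443.9 to 516.4 in the MM.1 lines.

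The sorted cells of all 3 lines gave signal from stromal genes. The summed intensity of 49 measured stromal cell markers was 35642 and 35289 on the INA-6 arrays, against 38009 and 37437 on the MM.1S arrays and 67999 and 67436 on the MM.1R arrays, while the arrays of cells alone ranged from 3298 to 8465. INA-6 and MM.1S were thus close, and MM.1R was the highest. For ACTB, the 3′ probe set divided by the 5′ probe set, a quotient that is high when RNA is partly degraded or poorly copied, gave 32.02 ± 0.53 in INA-6, against 5.1 ± 0.191 in MM.1S and 5.21 ± 0.285 in MM.1R (SD, n = 2 each). In cells alone the order was turned round, with 5.51 ± 0.291 in INA-6, against 22.4 ± 0.453 in MM.1S and 31.4 ± 1.16 in MM.1R. The part of either measure in the differences between lines was not tested, and the call in the cells-alone arrays is given for many of the genes below. Genes were named by a rule, and further list members given as examples were chosen after their values were seen. Duplicates correlated across genes at r = 0.987 for INA-6, 0.987 for MM.1S and 0.976 for MM.1R. MM.1S replicate 2 correlated with MM.1R replicate 1 at r = 0.983, and MM.1S replicate 1 with MM.1R replicate 2 at 0.980. Both pairs were closer than the MM.1R duplicates. INA-6 arrays correlated with MM.1 arrays at 0.84 to 0.862.

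INA-6 differed from the MM.1 lines over much of the transcriptome. Of 13275 genes tested, 7451 were called (56.1%), 3179 higher in INA-6 (23.9%) and 4272 lower (32.2%). The gene lists below are to be read against these shares, and 34.8% to 100% of their measured members were called. MM.1R minus MM.1S, fitted on the same arrays, gave 560 calls (4.22%). The median absolute difference was 0.47 for INA-6 against the MM.1 lines and 0.15 for MM.1R against MM.1S. Of the calls, 5751 (43.3% of genes tested) held against each MM.1 line with both INA-6 arrays outside the range of the 4 MM.1 arrays. Without regard to the test, the INA-6 arrays lay outside that range for 65.4% of genes. At least 2-fold differences were seen for 1087 higher and 1488 lower genes, and at least 16-fold for 52 higher and 78 lower genes. Of the genes called at least 2-fold apart that had several tested probe sets, 68 of 451 higher and 164 of 712 lower genes had another probe set of the opposite sign. The number of calls was 3771 with all 12 arrays in 1 fit and 3094 when duplicates were averaged to 1 value per line.

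The arrays of cells alone, which share no array with the coculture arrays, gave 5647 calls on the same genes (42.5%). In 2857 genes the call was the same in both conditions (21.5% of genes tested), 778 higher and 2079 lower in INA-6, and in 870 genes the calls were opposite. The same call was made alone for 24.5% of the genes higher in coculture and 48.7% of those lower, and in coculture for 46.0% of the genes higher alone and 52.6% of those lower alone. The numbers called alone were themselves unequal, 1693 higher and 3954 lower of 13275, and the median difference over all genes was -0.34 there. List values in cells alone are to be read against these. With quantile normalization the genes with the same call numbered 990 higher and 1762 lower. Among the genes differing at least 16-fold in coculture, 42 of 52 higher and 73 of 78 lower genes had the same call alone, and 0 had the opposite call. Across genes, which are not independent replicates, the differences in coculture and alone correlated at r = 0.47 (rho = 0.36).

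**Figure D1:**
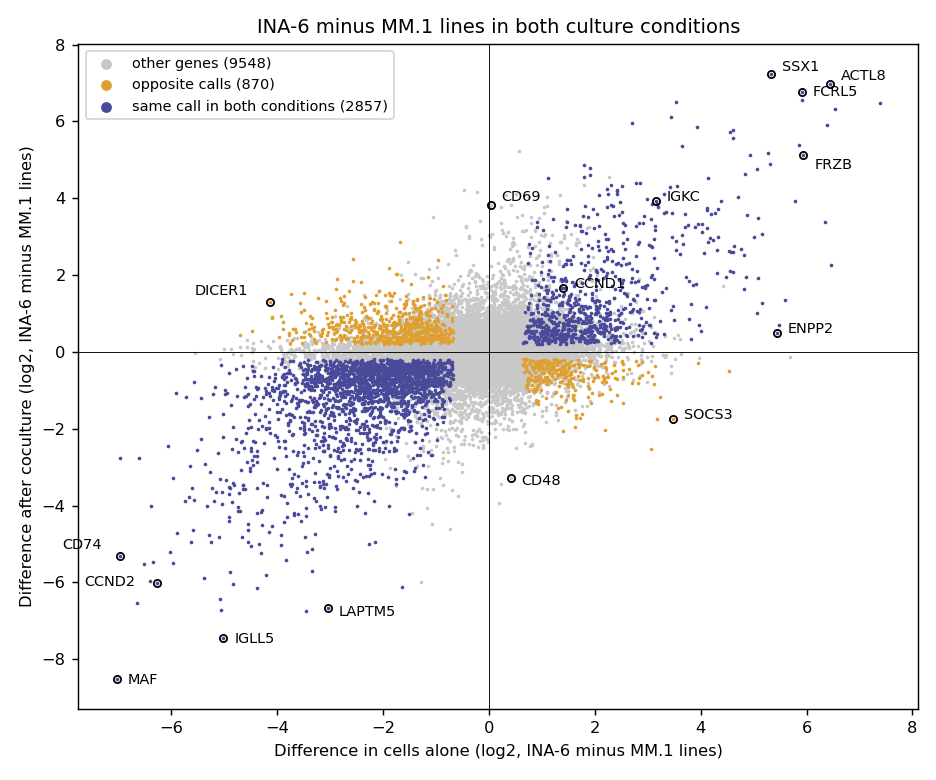
Each point is 1 of 13275 genes, with the difference INA-6 minus MM.1 lines (log2) in cells alone on the horizontal axis and after coculture on the vertical axis. The genes with the same call in both conditions (2857) reach from MAF at the lower left to SSX1 and ACTL8 at the upper right, while the genes with opposite calls (870) have opposite signs on the 2 axes.

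The largest difference of any gene tested was that of MAF, a transcription factor and myeloma oncogene. It gave 7.52 and 9.24 on the INA-6 arrays, against 4678 and 4855 on the MM.1S arrays and 4848 and 5025 on the MM.1R arrays. Its intensity in INA-6 was below the array median on both arrays, and the 4 MM.1 arrays lay close together. The difference was -8.51 ± 0.079 (SE, adjusted p = 2.45e-05), and in cells alone it was -7.03 with the same call. With INA-6 at the dim end of the scale the size depends on the offset, at -9.02 with 1 and -7.42 with 20 in place of 5. All 5 other tested MAF probe sets had the same sign, which the naming rule required, as it did the same call in cells alone.

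CCND2, the D-type cyclin that MAF activates, had 73.1 and 86.1 in INA-6, against 5482 and 5495 in MM.1S and 5561 and 5151 in MM.1R. The groups did not overlap, and the difference was -6.01 ± 0.09 (adjusted p = 2.45e-05), with -6.28 in cells alone. CCND1, the D-type cyclin of another myeloma subgroup, went the other way, with 1137 and 1074 in INA-6, against 339.6 and 294 in MM.1S and 377 and 365 in MM.1R. Both INA-6 arrays were above all 4 MM.1 arrays (1.68 ± 0.085, adjusted p = 0.000237), and in cells alone the difference was 1.40. CCND3, the remaining D-type cyclin, was lower in INA-6 by a smaller margin (-0.69). MYC, which drives growth and ribosome production, had 1666 and 1646 in INA-6, against 3064 and 2830.2 in MM.1S and 3128 and 2936 in MM.1R. Its difference of -0.85 was called in coculture, while the value in cells alone, 0.43, did not pass the test. FGFR3, the receptor gene of the myeloma subgroup with a translocation of that locus, was dim, with 19.7 and 25.6 in INA-6, against 20.5 and 17 in MM.1S and 21.6 and 24.5 in MM.1R, and did not pass (0.09). Of 11 measured oncogenes and D cyclins, 2 were called higher and 8 lower, and 1 and 4 of them had the same call in cells alone. Genes reported to be high in myeloma with CCND1 were 6 higher and 2 lower of 12, with a median of 0.89.

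Genes reported to be high in myeloma with MAF activity were mostly lower in INA-6, 7 of 9 measured, with 1 higher, and 5 of the 7 were also lower in cells alone. The list's median difference was -2.76, against -0.03 over all genes tested, and -0.87 with no filter on dim probe sets. ITGB7, an integrin subunit that binds E-cadherin and the stromal ligand VCAM1, had 127 and 129.5 on the INA-6 arrays, against 7296 and 7068 on the MM.1S arrays and 6839 and 6519 on the MM.1R arrays. These levels did not overlap (-5.70 ± 0.06, adjusted p = 2.45e-05), and in cells alone the difference was -3.35. CCR1, a receptor for inflammatory chemokines, stood at 88.5 and 96.7 in INA-6, against 1514 and 1631 in MM.1S and 1646 and 1517 in MM.1R, and it was also lower alone. NUAK1, an AMPK-related kinase, differed by -3.87, and DEPTOR, an inhibitor of the mTOR kinase complexes, by -2.76. The member called higher was FRZB, a secreted Wnt antagonist, with 961 and 926 in INA-6, against 21.9 and 19.3 in MM.1S and 25.7 and 21.7 in MM.1R. Both INA-6 arrays were far above the MM.1 arrays (5.13 ± 0.091, adjusted p = 3.85e-05), and in cells alone the difference was 5.94.

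**Figure D2:**
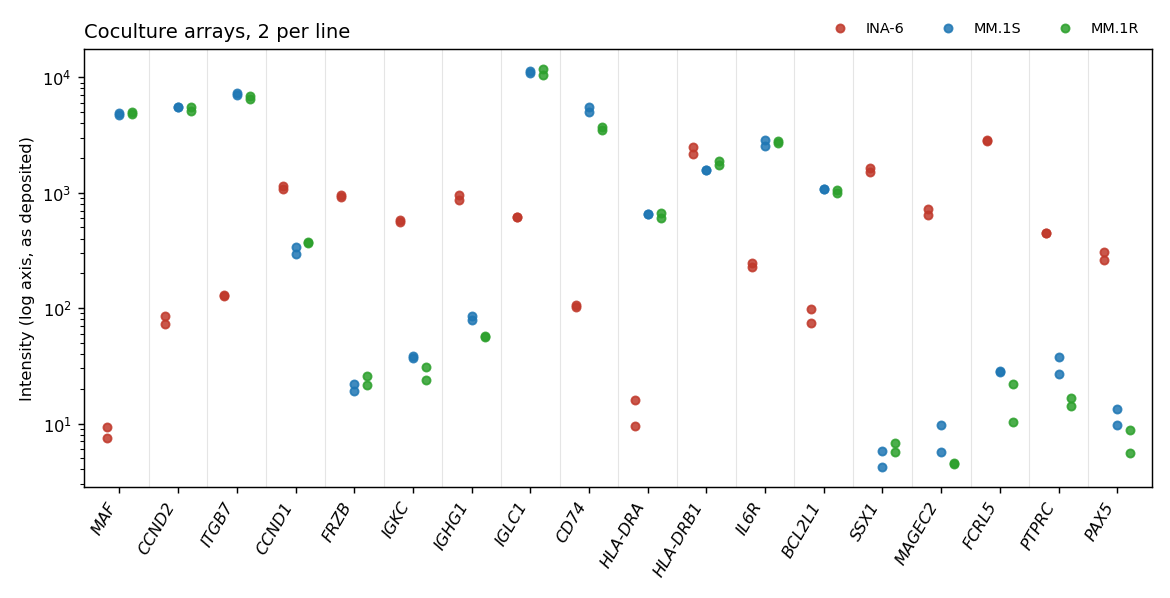
Deposited intensity (log axis) of 18 genes on the 6 coculture arrays, with INA-6 in red, MM.1S in blue and MM.1R in green and 1 point per array. The genes are a selection. In each of them both INA-6 points lie on 1 side of the 4 MM.1 points, as in 65.4% of all genes tested. MAF, for example, is at 7.52 and 9.24 in INA-6 against 4678 and 4855 in MM.1S and 4848 and 5025 in MM.1R.

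The lines also differed in immunoglobulin signal, with more kappa light chain and gamma heavy chain signal in INA-6 and more lambda light chain signal in the MM.1 lines. Immunoglobulin probe sets can share sequence with related gene segments, so the value of a single segment is uncertain. IGKC, the kappa constant region, had 574 and 552 on the INA-6 arrays, against 37 and 38.1 on the MM.1S arrays and 23.7 and 30.9 on the MM.1R arrays. IGLC1, a lambda constant region, had 615 and 609.6 on the INA-6 arrays, against 11247 and 10899 on the MM.1S arrays and 11737 and 10516 on the MM.1R arrays. The groups were apart in opposite directions, with differences of 3.94 ± 0.11 for IGKC (adjusted p = 6.86e-05) and -4.17 ± 0.072 for IGLC1 (adjusted p = 3.85e-05). In cells alone they were 3.16 and -4.31, with the same calls.

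IGHG1, the heavy chain constant region of IgG1, had 964 and 863 in INA-6, against 86 and 78.8 in MM.1S and 56.5 and 57.9 in MM.1R (difference 3.64, and 3.34 alone). The probe set annotated only as IGH, the heavy chain locus, had 2589.7 and 2560.1 in INA-6, against 31.7 and 46.1 in MM.1S and 52.5 and 41.8 in MM.1R. Its difference of 5.77 did not pass when only the most specific class of probe set (names ending in _at) was used (adjusted p = 0.155). The lambda-like genes followed IGLC1: IGLL5 had 13.9 and 32.4 in INA-6, against 4522 and 4548 in MM.1S and 4607 and 4842 in MM.1R, and IGLL3P, IGLV1-44 and IGLJ3 were lower in INA-6, at -4.95, -4.31 and -2.95. JCHAIN, which joins IgA and IgM molecules, was also lower (-0.97) but did not pass in cells alone (0.44). Among 15 measured immunoglobulin and secretion genes, 5 were higher and 10 lower. The list's median of -1.40 became 0.03 when only probe sets ending in _at were used.

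Cancer-testis antigens, proteins normally made in germ cells and encoded largely by gene families on the X chromosome, were among the largest differences. The list holds 43 genes, of which 30 had a probe set of their own and 16 passed the filter on low intensity. In 5 of the 16 all 4 MM.1 arrays lay below their medians, so these passed the filter through the INA-6 arrays alone, where they are high. With that limit, 9 of the 16 were higher in INA-6 and 1 lower. The list's median of 1.82 became 0.41 with no filter. SSX1, a transcriptional repressor of this class, had 1646 and 1519 on the INA-6 arrays, against 5.74 and 4.19 on the MM.1S arrays and 6.78 and 5.69 on the MM.1R arrays. MAGEC2, a partner of ubiquitin ligases, had 636 and 727 on the INA-6 arrays, against 9.77 and 5.69 on the MM.1S arrays and 4.5 and 4.56 on the MM.1R arrays. Every MM.1 array was below its array median for both genes, and both INA-6 arrays were above.

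The difference was 7.23 ± 0.099 for SSX1 (adjusted p = 2.45e-05) and 5.97 ± 0.15 for MAGEC2 (adjusted p = 5.98e-05), with 5.33 and 2.69 in cells alone. MAGEA6 had 1472 and 1482 in INA-6, against 54 and 60.6 in MM.1S and 35.5 and 33.5 in MM.1R, and CTAG2 had 1421 and 1439 in INA-6, against 216 and 195 in MM.1S and 54.5 and 45 in MM.1R. These families hold near-identical copies, so a probe set may read more than 1 member. PAGE5, PAGE1, MAGEC1 and MAGEA12 were higher by 5.39, 4.55, 3.23 and 2.40, and MAGEC1 did not pass in cells alone (1.86). MAGEA1 was the exception, with 747 and 674 in INA-6, against 1652 and 1549 in MM.1S and 1308 and 1277 in MM.1R. It was lower in INA-6 (-1.01) but did not pass in cells alone (-1.02). PRAME, another antigen of this class, was similar across arrays and did not pass (0.09).

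The other genes with the highest differences in both conditions came from varied families. ACTL8, an actin-like protein expressed mainly in testis, had 1857 and 1855 on the INA-6 arrays, against 9.3 and 9.55 on the MM.1S arrays and 8.95 and 11.3 on the MM.1R arrays. CD247, the zeta chain of the T cell receptor complex, had 683 and 673 on the INA-6 arrays, against 2.04 and 1.69 on the MM.1S arrays and 6.19 and 4.86 on the MM.1R arrays. In both genes the MM.1 arrays lay below their array medians and the INA-6 arrays far above. CD3E, another chain of that complex, was dim on all arrays, with 45.3 and 43.2 in INA-6, against 36.8 and 31.1 in MM.1S and 22.7 and 17.9 in MM.1R. RUNX1T1, a transcriptional corepressor, differed by 5.72, and GTSF1, a germ line factor of the piRNA pathway, by 5.58. MLC1, DPEP3 (a dipeptidase), RTP3, WDR72, FAM133A and FSTL5 (a follistatin-like protein) had differences from 5.85 to 6.57. The naming rule required the same call for them in cells alone. Their sizes depend on the offset where the MM.1 values are dim, as for DPEP3 at 7.62 with 1 and 4.95 with 20.

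At the low end, LAPTM5, a lysosomal membrane protein of blood cells, had 49.4 and 58.4 on the INA-6 arrays, against 6065 and 5945 on the MM.1S arrays and 6134 and 5882 on the MM.1R arrays. SCNN1B, a subunit of the epithelial sodium channel, had 7.39 and 7.67 on the INA-6 arrays, against 1389.5 and 1416 on the MM.1S arrays and 1174 and 1335 on the MM.1R arrays. No MM.1 array came near the INA-6 values. SCNN1G, a second subunit of the channel, differed by -6.75 as well, although its 1 other probe set had the opposite sign. PDGFB, a growth factor chain, had 1.59 and 1.2 in INA-6, against 506 and 451 in MM.1S and 478 and 333 in MM.1R. Its difference of -6.11 ± 0.17 (adjusted p = 6.64e-05) was larger than the -1.65 seen in cells alone, and the difference between conditions passed (adjusted p = 6.09e-05). With INA-6 at the dim end of the scale, the size for PDGFB in coculture depends on the offset, at -7.52 with 1 and -4.42 with 20. UCHL1, a deubiquitinase of neurons and some tumours, PITX1, a homeobox factor, CLEC7A, a receptor for beta-glucan, PCP4, QPCT, POGLUT2 and TAFA5 had differences from -5.73 to -6.54. These genes were also named by the rule that required the same call in cells alone. Sizes at dim values depend on the offset, as for PITX1 at -7.87 with 1 and -4.73 with 20.

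Surface antigens of B cells and plasma cells split both ways, with 13 of 45 measured members higher in INA-6 and 21 lower. Of these, 9 higher and 9 lower genes had the same call in cells alone. FCRL5, an Fc receptor-like protein of B and plasma cells, had 2883 and 2778 on the INA-6 arrays, against 28.7 and 28.2 on the MM.1S arrays and 22 and 10.4 on the MM.1R arrays. PTPRC, the CD45 phosphatase of blood cells, had 445 and 443 on the INA-6 arrays, against 37.5 and 26.9 on the MM.1S arrays and 14.2 and 16.5 on the MM.1R arrays. CD180, a Toll-like receptor relative of B cells, had 1342 and 1268 on the INA-6 arrays, against 129.8 and 97.7 on the MM.1S arrays and 47.5 and 67.6 on the MM.1R arrays. In all 3 genes the INA-6 arrays were above the MM.1 arrays, by 6.76, 4.04 and 3.94, with the same calls in cells alone. For FCRL5 the naming rule required that call. CD79B, a B cell receptor chain, was higher by 2.60, whereas its partner CD79A was dim and did not pass (0.24).

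CD9, a tetraspanin, had 20.5 and 37.4 on the INA-6 arrays, against 1865 and 1886 on the MM.1S arrays and 1867 and 1735 on the MM.1R arrays. CD28, a costimulatory receptor that myeloma cells can carry, had 44.7 and 43.2 on the INA-6 arrays, against 1347 and 1375 on the MM.1S arrays and 1289 and 1279 on the MM.1R arrays. CD52, the target of alemtuzumab, had 15.5 and 19.1 on the INA-6 arrays, against 547 and 506 on the MM.1S arrays and 456 and 517 on the MM.1R arrays. INA-6 was lower throughout, with differences of -5.81, -4.76 and -4.52, with the same calls in cells alone. For CD9 the naming rule required that call. SLAMF7, the target of elotuzumab, and its neighbour CD48, a ligand of the same receptor family, were lower in coculture, at -2.12 and -3.28, but not in cells alone (-0.01 and 0.41), and the difference between conditions passed for both (adjusted p = 6.33e-05 and 3.52e-05). TNFRSF17, the receptor BCMA, was close between lines, with 2668 and 2748 in INA-6, against 2030.2 and 2081 in MM.1S and 2083 and 2002 in MM.1R (difference 0.40). CD69, an early activation antigen, had 123 and 128 in INA-6, against 3.17 and 4.71 in MM.1S and 3.71 and 5.26 in MM.1R. It differed by 3.83 in coculture and by 0.03 in cells alone, which did not pass.

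Transcription factors of the B lineage included 8 of 25 higher and 14 lower in INA-6. PAX5, which maintains B cell identity and is normally silenced in plasma cells, had 259 and 303 on the INA-6 arrays, against 9.75 and 13.3 on the MM.1S arrays and 5.56 and 8.82 on the MM.1R arrays. PRDM1, which encodes the plasma cell factor BLIMP1, had 346 and 304 on the INA-6 arrays, against 1949 and 1836 on the MM.1S arrays and 1992 and 2058 on the MM.1R arrays. The differences ran in opposite directions, 4.34 ± 0.16 (adjusted p = 0.000126) and -2.57 ± 0.082 (adjusted p = 8.85e-05), both with the same call in cells alone. IRF4, on which myeloma cells depend, differed little (-0.45), and in cells alone it did not pass (0.04). ID3, an inhibitor of E proteins, was higher by 2.19, and KLF13 was lower, at -1.62.

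Plasma cell markers as a list were 3 higher and 10 lower of 13, with a median difference of -0.86. Only PRDM1 among the lower ones was also called lower in cells alone, and the alone median was 0.04, against -0.34 over all genes. SDC1, the plasma cell marker CD138, illustrates this, with 983 and 1027 in INA-6, against 2129.7 and 2126 in MM.1S and 2139 and 2068 in MM.1R in coculture. Both INA-6 arrays were below the 4 MM.1 arrays (-1.07), whereas the difference in cells alone, -0.19, did not pass. FKBP11, a folding factor of secretory cells, was higher in both conditions (1.04 and 1.75).

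Several MHC class II genes were far lower in INA-6. Class II molecules present peptides from endocytosed proteins to CD4 T cells, and CIITA switches their genes on together with the invariant chain gene CD74. Of 17 measured members 9 were lower and 5 higher, against 32.2% lower and 23.9% higher over all genes, with a median difference of -1.17. Each of the 9 lower genes was also called lower in cells alone. Of the 5 higher genes 0 had the same call there, and 1 had the opposite call. In 6 of the 17 both INA-6 arrays lay below their medians, so these entered through the MM.1 arrays alone. CD74 had 102 and 106 on the INA-6 arrays, against 5481 and 4992 on the MM.1S arrays and 3515 and 3701 on the MM.1R arrays. HLA-DRA, the DR alpha chain, had 9.55 and 16.1 on the INA-6 arrays, against 657 and 648 on the MM.1S arrays and 666 and 604 on the MM.1R arrays. HLA-DPA1, the DP alpha chain, had 18.6 and 21.4 on the INA-6 arrays, against 995 and 951 on the MM.1S arrays and 844 and 870.3 on the MM.1R arrays. In all 3 the INA-6 arrays were far below both MM.1 lines, with differences of -5.32 ± 0.071, -5.21 ± 0.17 and -5.20 ± 0.075 (adjusted p = 2.45e-05, 8.85e-05 and 2.45e-05).

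HLA-DPB1 had 8.99 and 10.8 in INA-6, against 591 and 572 in MM.1S and 549.5 and 526 in MM.1R, a difference of -5.25, which did not pass when only probe sets ending in _at were used (adjusted p = 0.999). HLA-DMA and HLA-DMB, which load peptides, differed by -3.56 and -1.20, and HLA-DQB1 by -2.35. CIITA itself was dim, with 16.9 and 18.3 in INA-6, against 44.8 and 46.5 in MM.1S and 57.2 and 37 in MM.1R, yet lower (-1.17). RFX5, a subunit of the complex that binds class II promoters, was lower, at -1.17. HLA-DRB1 did not follow the other class II chains. It had 2172 and 2473 on the INA-6 arrays, against 1559 and 1585 on the MM.1S arrays and 1742 and 1894 on the MM.1R arrays, slightly higher in INA-6 (0.45, adjusted p = 0.00962), and in cells alone it did not pass (-0.15). DRB genes are highly alike and differ between people, so this probe set may read several of them. HLA-DOB, an inhibitor of peptide loading, was higher (1.14). HLA-DQA1 was called higher at dim values (1.06), and the sign turned when all its probe sets were averaged (-0.08). That call was lost in 7 alternative settings (adjusted p 0.0501 to 0.284).

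Class II promoters carry a set of conserved boxes just upstream of the start site. To show them beside these values, 150 bases upstream of the start are given for HLA-DPB1, HLA-DQB1 and HLA-DMA, which were lower in INA-6, and for HLA-DRB1, which was not. They come from RefSeq (GRCh38.p14) on the strand of the gene, 5′ to 3′. The letters searched on both strands were CTGATTGG, a form of the Y box, and its shorter core ATTGG; capitals mark every match, and CTGATTGG contains ATTGG.
HLA-DPB1 (chr6:33075840-33075989, plus strand): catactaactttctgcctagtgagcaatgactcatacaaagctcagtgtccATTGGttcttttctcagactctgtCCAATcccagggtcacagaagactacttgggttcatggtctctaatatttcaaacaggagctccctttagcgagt
HLA-DQB1 (chr6:32666658-32666807, minus strand): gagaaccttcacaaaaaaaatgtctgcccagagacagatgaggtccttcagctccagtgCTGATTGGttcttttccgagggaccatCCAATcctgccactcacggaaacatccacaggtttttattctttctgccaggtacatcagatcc
HLA-DMA (chr6:32953098-32953247, minus strand): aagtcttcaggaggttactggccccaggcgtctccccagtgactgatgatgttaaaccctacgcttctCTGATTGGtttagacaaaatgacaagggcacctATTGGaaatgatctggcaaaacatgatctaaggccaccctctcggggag
HLA-DRB1 (chr6:32589849-32589998, minus strand): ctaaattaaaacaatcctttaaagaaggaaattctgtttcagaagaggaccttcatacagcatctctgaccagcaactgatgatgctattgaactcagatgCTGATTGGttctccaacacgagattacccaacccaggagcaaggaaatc
The longer form was in the windows of HLA-DQB1, HLA-DMA and HLA-DRB1, and the core alone in that of HLA-DPB1. Among 35116 promoters of this length, 3.12% held CTGATTGG and 23.5% held ATTGG on either strand. The letters were thus present both in genes lower in INA-6 and in HLA-DRB1, which was not lower. A match is a description of the reference sequence and says nothing of binding in these cells.

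MHC class I genes were closer between lines in coculture. Class I molecules present peptides from inside the cell to CD8 T cells. Of 21 measured members of class I and peptide loading, 5 were higher and 10 lower, with a median difference of -0.07, which turned to 0.04 with quantile normalization. B2M, the shared light chain, had 7020.1 and 7402 in INA-6, against 7339.5 and 7628 in MM.1S and 7737 and 7651 in MM.1R and did not pass (-0.07). NLRC5, the activator of class I genes, was the highest, with 789.7 and 715 on the INA-6 arrays, against 121 and 107 on the MM.1S arrays and 95.9 and 101 on the MM.1R arrays. All INA-6 values were above the MM.1 values (2.77 ± 0.087, adjusted p = 8.64e-05), and it was higher in cells alone too (4.63). TAPBPL, a peptide editor, was the lowest, with 15.1 and 17.7 on the INA-6 arrays, against 315 and 326 on the MM.1S arrays and 230.3 and 389 on the MM.1R arrays (difference -3.88). The class I chains themselves changed order with the condition: HLA-B, HLA-F and HLA-G were lower in coculture (-0.36, -0.69 and -0.48) and higher in cells alone (1.85, 1.59 and 2.53). These chains are near-identical copies in part, and their values are not independent.

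**Figure D3:**
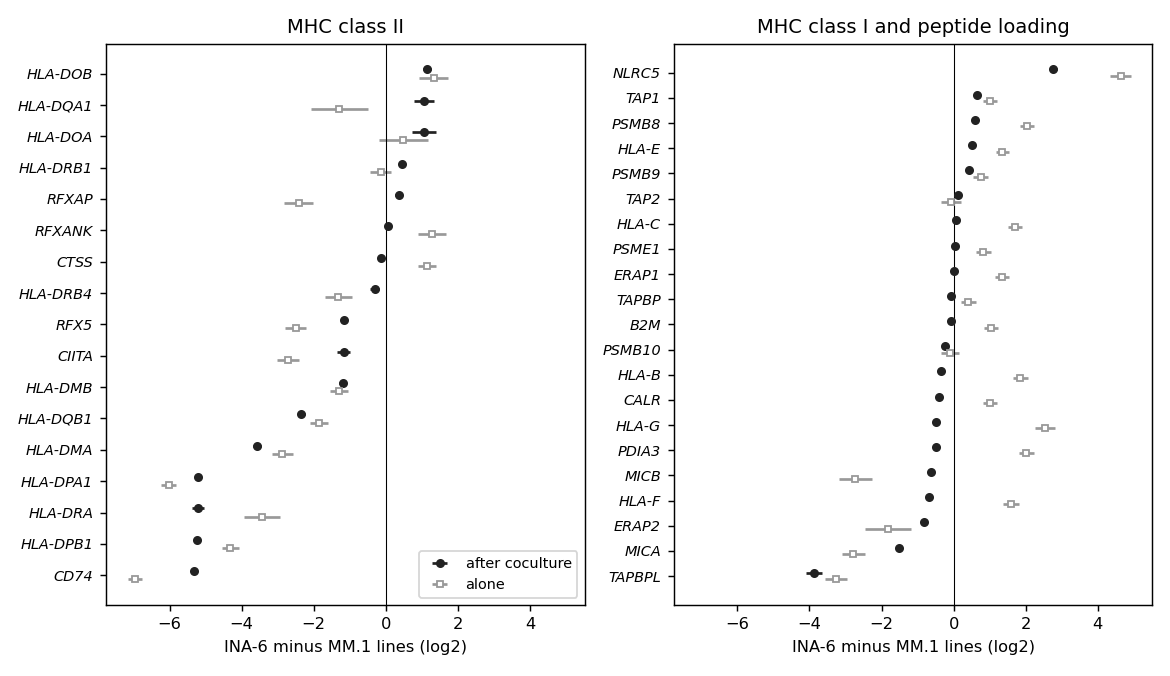
Difference INA-6 minus MM.1 lines (log2, horizontal axis) for measured MHC class II genes (left) and class I and peptide loading genes (right), after coculture (filled circles) and alone (open squares), with bars for the SE. CD74, HLA-DRA, HLA-DPA1 and HLA-DPB1 lie below -5 after coculture, while most class I genes lie near 0 after coculture and to the right of it in cells alone.

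INA-6 differed from the MM.1 lines in genes of the IL-6 pathway, on which its growth depends. IL-6 binds IL6R and the shared chain IL6ST, which act through JAK kinases and STAT3, and SOCS3 and CISH feed back on cytokine receptors. Of 36 measured members of this family 8 were higher and 20 lower in INA-6, and 0 of the higher and 7 of the lower had the same call in cells alone. IL6R had 229 and 246 on the INA-6 arrays, against 2561 and 2847 on the MM.1S arrays and 2677 and 2791 on the MM.1R arrays. The MM.1 arrays were all far above INA-6, and the difference was -3.49 ± 0.078 (adjusted p = 4.87e-05), with -2.88 in cells alone. IL6ST was lower, at -0.78, and STAT3 did not pass (-0.19). IL6 had 1621 and 1575 in INA-6, against 2596 and 2568 in MM.1S and 5115 and 5134 in MM.1R. The lines had the same order in the stromal marker sums given above, though INA-6 and MM.1S lay close together there. The part of stromal signal in IL6 was not tested, and IL6 was not called in cells alone (1.48).

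Other cytokine receptor genes differed in both directions. LIFR, the receptor for leukaemia inhibitory factor, was higher in INA-6 (1.41) and did not pass in cells alone (0.12). IL21R had 4.97 and 1.36 on the INA-6 arrays, against 240.1 and 219 on the MM.1S arrays and 199 and 178 on the MM.1R arrays. IL2RG, the common gamma chain it pairs with, had 83 and 63.8 on the INA-6 arrays, against 1680.3 and 1741 on the MM.1S arrays and 1283 and 1045 on the MM.1R arrays. IL4R and IL10RA were lower, at -2.70 and -2.44, and IL10RA, IL4R and IL21R had the same call in cells alone, while IL2RG did not pass there (-1.46). CSF2RB, the shared chain of the IL-3, IL-5 and GM-CSF receptors, had 22.6 and 17.9 in INA-6, against 753 and 753 in MM.1S and 832 and 846 in MM.1R, whereas IL5RA, which pairs with it, was higher in INA-6 (2.82). For IL5RA the sign turned when only probe sets ending in _at were used (-0.3). CISH was called higher (2.54 ± 0.7, adjusted p = 0.0334), but the MM.1 duplicates spread widely, with 221 and 279.9 in INA-6, against 68.3 and 26 in MM.1S and 14.4 and 77.1 in MM.1R, and the call was lost in 5 of the alternative settings (adjusted p 0.0532 to 0.15).

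SOCS3, an inhibitor of IL-6 signalling that STAT3 itself induces, differed between lines in opposite directions in the 2 conditions. In coculture it had 423 and 409 on the INA-6 arrays, against 1544 and 1402 on the MM.1S arrays and 1195 and 1487 on the MM.1R arrays. In cells alone it had 167 and 40.3 in INA-6, against 1.83 and 3.89 in MM.1S and 5.32 and 1.29 in MM.1R. INA-6 was thus the lowest line in coculture (-1.74) and the highest alone (3.48), and the difference between conditions was -5.22 ± 0.67 (adjusted p = 0.000587).

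Genes of the BCL2 family, which control mitochondrial apoptosis, were 4 higher and 9 lower of 16. BCL2L1, which encodes the survival protein BCL-XL, had 73.7 and 98.6 on the INA-6 arrays, against 1067 and 1074 on the MM.1S arrays and 1049 and 1002 on the MM.1R arrays. The groups were far apart (-3.54 ± 0.13, adjusted p = 0.000112), and in cells alone the difference was -5.23. MCL1, the survival protein on which most myeloma cells rely, differed by -0.53, and BCL2 did not pass in coculture (-0.01). Among the death-promoting members, BIK was higher, with 192 and 218 in INA-6, against 21.7 and 11.6 in MM.1S and 20.3 and 30.7 in MM.1R, and BMF was lower, with 27.2 and 30.1 in INA-6, against 226 and 187 in MM.1S and 160.2 and 199 in MM.1R. Both had the same call in cells alone. BAX, BAD and BCL2L11 were lower, at -1.20, -1.20 and -1.62. Death receptors and caspases had 8 of 20 higher and 6 lower, 70% called against 56.1% over all genes. FAS, a death receptor, was lower in coculture (-1.29) and higher in cells alone (0.93), and APAF1, the scaffold of the apoptosome, was higher in coculture (1.35) and did not pass in cells alone (-0.33).

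Genes that myeloma can lose by deletion were 7 higher and 7 lower of 21, against 23.9% higher and 32.2% lower over all genes. FAF1, a FAS-associated factor, had 889 and 793 on the INA-6 arrays, against 64.8 and 72 on the MM.1S arrays and 95.9 and 107 on the MM.1R arrays. CDKN2A, which encodes the inhibitors p16 and ARF, had 1782 and 1865 on the INA-6 arrays, against 209 and 175 on the MM.1S arrays and 416 and 409 on the MM.1R arrays. Both were higher in INA-6, by 3.26 and 2.67, and also in cells alone. For CDKN2A the MM.1R arrays lay above the MM.1S arrays. CDKN2B, its neighbour, was higher by 2.73 but did not pass in cells alone (0.74). CDKN1A and CDKN1B, inhibitors of the cyclin-dependent kinases, were lower, at -1.36 and -1.35 in coculture and were also called lower in cells alone. Of 45 measured cell cycle genes, 11 were higher and 20 lower, with a median of -0.19. MKI67, a marker of cycling cells, had 864 and 821 in INA-6, against 1676 and 1680.4 in MM.1S and 1996 and 1965 in MM.1R (-1.11), and it did not pass in cells alone. CDT1, a licensing factor of replication, was higher (1.12).

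The NF-kB list, genes of a pathway that many myelomas activate, was 1 higher and 18 lower of 32. In all 59.4% were called, near the 56.1% over all genes (23.9% higher and 32.2% lower). Of the lower genes 14 had the same call in cells alone. TNFAIP3, the inhibitor A20, had 195 and 211 on the INA-6 arrays, against 1731 and 1658 on the MM.1S arrays and 1919 and 1886 on the MM.1R arrays. PLEK, a phosphoprotein of blood cells, had 13 and 20.4 on the INA-6 arrays, against 562 and 556 on the MM.1S arrays and 503 and 499.8 on the MM.1R arrays. Both were lower by a wide margin (-3.12 and -4.64). NFKB2, RELB and MAP3K14 of the alternative pathway differed by -1.07, -1.26 and -0.83, and in cells alone by -5.92, -2.08 and -1.55. BIRC2, a ubiquitin ligase of the pathway, was the only member called higher (0.36), and that call was lost in 7 alternative settings (adjusted p 0.0505 to 0.158). The median of the list was -0.30.

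Interferon-stimulated genes were 4 higher and 29 lower of 46 in coculture, with a median of -0.80 against -0.03 over all genes. Of the 29, 6 were called lower in cells alone, where the median was -0.05 against -0.34 over all genes. GBP1, a guanylate-binding protein, had 32.6 and 30.5 on the INA-6 arrays, against 399 and 419 on the MM.1S arrays and 354 and 465 on the MM.1R arrays. IFITM1, a membrane protein that blocks virus entry, had 1347 and 1433 on the INA-6 arrays, against 289.8 and 299 on the MM.1S arrays and 425 and 424 on the MM.1R arrays. They marked the lowest and the highest member, -3.50 and 1.96, each with the same call alone. HERC5 and IFIH1 were lower, at -2.12 and -1.97. XAF1 was lower in coculture (-2.22) and not in cells alone (-0.07). Several genes of this list, such as IFIT1 at 114 and 50.3 in INA-6, against 161 and 127 in MM.1S and 193 and 305 in MM.1R, were highest in MM.1R, the line with the highest stromal marker sum, and the part of stromal signal in them was not tested.

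Adhesion and homing genes included large differences beside ITGB7. ITGA8, an integrin alpha chain, had 37.2 and 35.8 in INA-6, against 771 and 745 in MM.1S and 689.8 and 717 in MM.1R. ITGA4, which pairs with ITGB7 or ITGB1, was higher in INA-6, with 784 and 812, against 391.8 and 367 in MM.1S and 367 and 384 in MM.1R. The differences were -4.15 and 1.07, both with the same call in cells alone. Of 33 integrins and adhesion genes 6 were higher and 17 lower, and of 18 chemokine genes 2 were higher and 12 lower. CCR10, a receptor of antibody-secreting cells, was higher (1.27), as was S1PR4 (1.12).

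Of 29 measured Wnt genes, 12 were higher and 9 lower. LGR4, a receptor for R-spondins, had 384 and 403 in INA-6, against 22.2 and 38.2 in MM.1S and 28.7 and 22.1 in MM.1R. WNT10B, a ligand, had 422 and 421 in INA-6, against 47.6 and 33.9 in MM.1S and 21.8 and 37.5 in MM.1R. WNT10A, another ligand, ran the other way, with 10.5 and 15 in INA-6, against 662 and 646 in MM.1S and 459.8 and 417 in MM.1R. The differences were 3.63, 3.45 and -4.94, with the same calls in cells alone. RNF43, a ligase that removes Wnt receptors, was higher, with 163 and 144 in INA-6, against 4.9 and 8.01 in MM.1S and 6.47 and 6.26 in MM.1R, but did not pass in cells alone (1.10), while WNT5B and the coreceptor gene LRP6 were lower (-3.41 and -2.76). In the Notch list, 5 of 15 were higher and 4 lower, 60% called, near the 56.1% over all genes. HES1, a target gene, was lower (-3.77, and -3.06 alone), while HEY2 and HES6 were higher (2.25 and 2.39). In cells alone HEY2 did not pass (0.49), HES6 was called lower (-0.96), and the list was 0 higher and 7 lower.

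Feedback genes of the RAS and MAPK pathway were 5 higher and 12 lower of 23. SPRED2, an inhibitor of RAS signalling, had 74.7 and 77.4 in INA-6, against 458 and 429 in MM.1S and 453 and 468 in MM.1R. DUSP4, a MAPK phosphatase, was lower, at -1.76, and SPRY1, another feedback inhibitor, was higher by 1.70. Growth factor receptors and ligands were 9 higher and 15 lower of 34, 70.6% called against 56.1% over all genes. TGFB1, a ligand with broad effects on stroma and immune cells, was higher (1.57), but the value in cells alone, 0.73, did not pass.

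Among glucocorticoid receptor targets, 2 of 14 were higher and 8 lower. FKBP5, a chaperone partner of the receptor, had 1362 and 1338 in INA-6, against 436 and 408 in MM.1S and 422 and 409.8 in MM.1R. It was higher in both conditions (1.68 and 1.44). KLF9 was higher in coculture (2.81), although 2 of its 3 other probe sets had the opposite sign. DUSP1, a phosphatase that glucocorticoids induce, was lower (-1.17).

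Metabolic genes showed single large differences within mixed lists. PFKP, the platelet form of phosphofructokinase, had 1366 and 1409.7 on the INA-6 arrays, against 109 and 117 on the MM.1S arrays and 338 and 271 on the MM.1R arrays. ENO2, an enolase, had 265 and 262 on the INA-6 arrays, against 1575 and 1523 on the MM.1S arrays and 1839 and 1768 on the MM.1R arrays. They lay at opposite ends of the 32 measured hypoxia and glycolysis genes, of which 12 were higher and 15 lower, at 2.87 and -2.64. PFKP did not pass when duplicates were averaged (adjusted p = 0.074), and its 1 other probe set had the opposite sign. SQLE, an enzyme of sterol synthesis, had 411 and 507 in INA-6, against 27.8 and 38.5 in MM.1S and 87.2 and 83.5 in MM.1R. Its difference was 2.98, within a cholesterol list of 6 higher and 6 lower of 21, 57.1% called against 56.1% over all genes. ER stress and folding genes were 8 higher and 11 lower of 31, 61.3% called, near the 56.1% over all genes. HSP90B1, an ER chaperone, was higher (0.94) and HERPUD1 lower (-1.50, against 0.01 alone, which did not pass). In cells alone the same list was 19 higher and 2 lower, with a median of 1.09 against -0.34 over all genes. Its median in coculture was -0.03. Opposite calls were made for 7 members, and 20 passed for the difference between conditions.

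DNMT3B, a de novo DNA methyltransferase, had 1244 and 1395 on the INA-6 arrays, against 207 and 163 on the MM.1S arrays and 223 and 198 on the MM.1R arrays. Both INA-6 arrays were above the MM.1 arrays (2.72 ± 0.13, adjusted p = 0.000208), and it was higher alone by 0.81. Of the 21 measured epigenetic enzymes 6 were higher and 5 lower, 52.4% called against 56.1% over all genes. CBX7, a Polycomb subunit, was the lowest at -1.85. In cells alone the list was 2 higher and 15 lower, with a median of -2.17 against -0.34 over all genes. Opposite calls were made for 4 members, and 16 passed for the difference between conditions. HOXC4 and MEIS2, homeodomain factors, were higher by 3.30 and 2.87, and HOXB2 was lower (-1.38), in a list of 4 higher and 8 lower of 23, the share of lower genes being near that over all genes (32.2%). MEIS2 and HOXB2 did not pass in cells alone (1.36 and 0.55). Ribosomal protein genes had the smallest share of calls among the 34 lists in coculture, 34.8% (16 of 46). Their differences ran from -0.46 to 0.66. In cells alone 21 were higher and 0 lower, with a median of 0.58 against -0.34 over all genes. Opposite calls were made for 9, and 34 passed for the difference between conditions. MYC targets and ribosome biogenesis genes were 2 higher and 11 lower of 25, 52% called against 56.1% over all genes. ODC1, an enzyme of polyamine synthesis, was lower, at -0.83 in coculture, and higher by 1.09 alone.

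**Figure D4:**
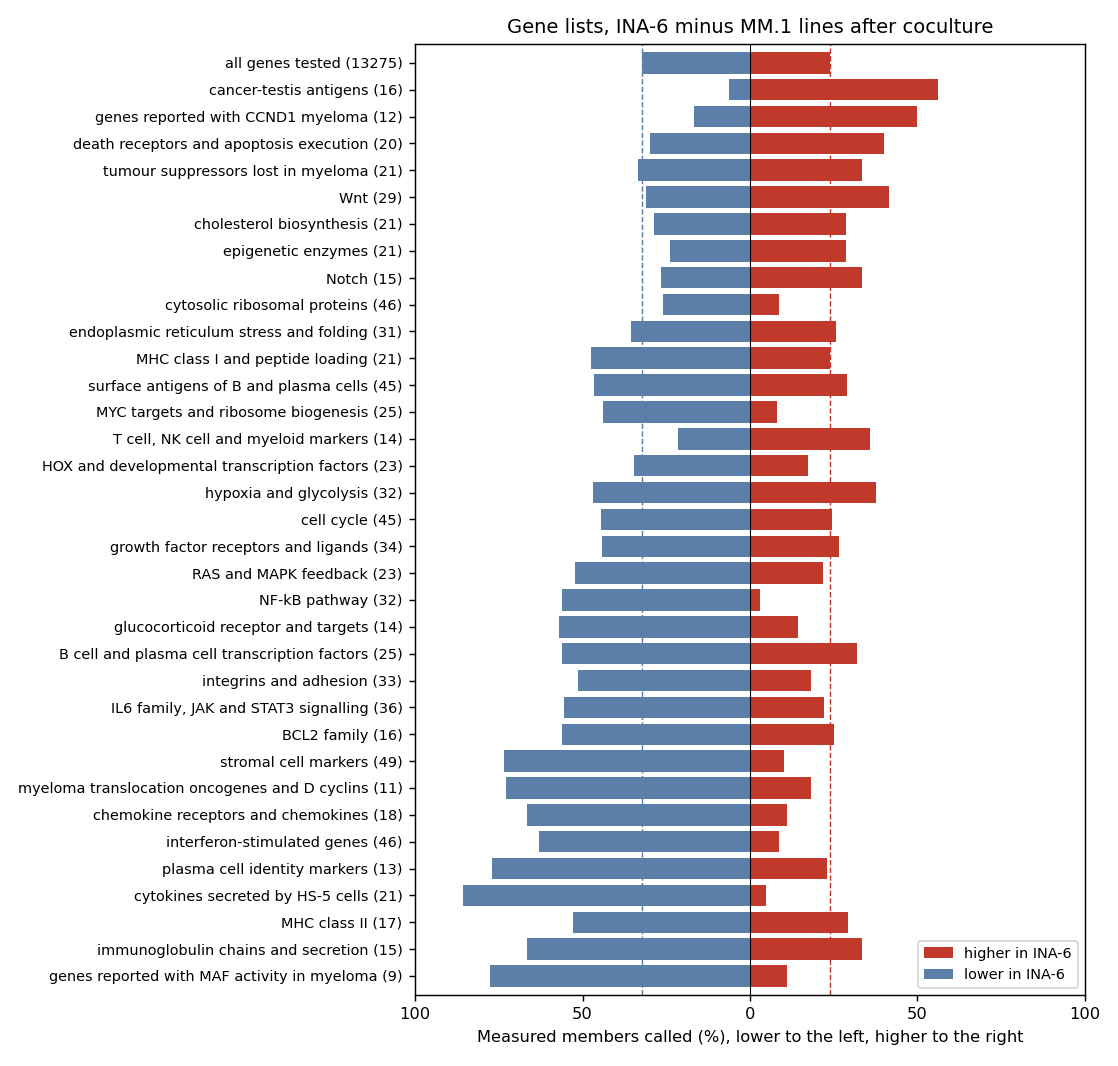
For each of 34 gene lists (number of measured members in brackets) the bars give the percent of members called higher in INA-6 (red, to the right) and lower (blue, to the left) after coculture, ordered by median difference, with all genes tested at the top and as dashed lines. Medians run from -2.76 for genes reported with MAF activity to 1.82 for cancer-testis antigens, of which 5 members passed the filter through the INA-6 arrays alone.

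Stromal cell genes were lower in INA-6 than in the mean of the MM.1 lines, 36 of 49, with 5 higher and a median of -0.61. Of these, 14 held against each MM.1 line with the arrays apart, and 5 had the same call in cells alone. COL1A1, a collagen chain, had 1216 and 1106 in INA-6, against 1302 and 1305 in MM.1S and 2548 and 3001 in MM.1R. FN1, fibronectin, had 1125 and 1231 in INA-6, against 1295 and 1222 in MM.1S and 2741 and 2908 in MM.1R. INA-6 lay near MM.1S and below MM.1R in both. DCN, the matrix protein decorin, was different, with 26.4 and 21.6 on the INA-6 arrays, against 424 and 329 on the MM.1S arrays and 374 and 605 on the MM.1R arrays, a difference of -3.88 that was also called in cells alone (-2.17). IGFBP7 and THY1 were higher in INA-6 by 2.11 and 1.88, though neither passed in cells alone. Cytokines that HS-5 cells secrete were 18 lower and 1 higher of 21, with a median of -0.96. CXCL8, for example, had 4471 and 4832 in INA-6, against 5025 and 4959 in MM.1S and 6671 and 6702 in MM.1R, and CCL2 had 6.79 and 16.6 in INA-6, against 43.5 and 44.6 in MM.1S and 165 and 161 in MM.1R. In sorted samples, fewer stromal cells and less RNA per stromal cell cannot be told apart, nor can either be told apart from expression in the myeloma cells.

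Some genes were dim in one lineage and bright in the other. In 83 genes both INA-6 arrays lay below the array median while all 4 MM.1 arrays lay above the upper quartile, and 71 of these had the same call in cells alone. In 57 genes INA-6 lay above the upper quartile and all MM.1 arrays below the median, and 41 had the same call alone. Both sets were picked from 13275 genes by their coculture values. The first passed the filter through the MM.1 arrays alone, and the second through the INA-6 arrays alone. Over all genes called in coculture, the same call was made alone for 48.7% of the lower and 24.5% of the higher genes. The opposite call alone was made for 0 genes of either set. The first set held MAF, HLA-DRA, HLA-DPA1, CD52, IL21R, CSF2RB, WNT10A and PDGFB, together with NOD2, a sensor of bacterial peptides (-5.06), and LTB, lymphotoxin beta (-2.70). The second held SSX1, MAGEC2, PAX5 and CD247, together with IL2RB, a receptor chain for IL-2 and IL-15 (4.12), and PTPRCAP, a partner of CD45 (5.17).

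The difference between the lines was not the same in the 2 conditions for 5814 genes (43.8%) in a 12-array fit, 3929 with a higher INA-6 minus MM.1 value in coculture (29.6%) and 1885 with a lower one (14.2%). With quantile normalization these were 3494 and 2167. The median difference over all genes was -0.03 in coculture and -0.34 alone. In cells alone the arrays' upper quartiles were 73.6 and 69.9 in INA-6, against 99.2 to 107 in the MM.1 lines. The bioB spike-in control averaged 4080 in INA-6 alone, against 2136 in MM.1S and 646 in MM.1R. The part of these array differences in the split was not tested. The highest such values were those of DICER1, the enzyme that cuts microRNA precursors, GIGYF1, N4BP2L2, SRGAP2 and ZNF292. DICER1 had 472 and 529 on the INA-6 arrays, against 210.0 and 206 on the MM.1S arrays and 217 and 169 on the MM.1R arrays in coculture. In cells alone it had 32.6 and 27.5 in INA-6, against 633 and 637 in MM.1S and 581 and 583 in MM.1R. INA-6 was above the MM.1 lines in coculture (1.30) and below them alone (-4.13). For GIGYF1 both other probe sets had the opposite sign. The ACTB 3′ to 5′ ratio, given above, also had opposite orders in the 2 conditions, and its part in these genes was not tested.

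ENPP2, the enzyme autotaxin, had 489.9 and 447 on the INA-6 arrays, against 259 and 247 on the MM.1S arrays and 446 and 428 on the MM.1R arrays in coculture. In cells alone it had 2029 and 1146 in INA-6, against 88.3 and 25.5 in MM.1S and 10.7 and 30.1 in MM.1R. It was higher in INA-6 in both conditions, by 0.49 and 5.43, but the coculture call was lost in 4 alternative settings (adjusted p 0.278 to 0.516), and its 1 other probe set had the opposite sign. FGFR2, a fibroblast growth factor receptor, and RPL39L were lower in coculture (-1.76 and -2.53) and higher alone (3.17 and 3.07). NPR1, a natriuretic peptide receptor, differed by -0.50 in coculture and 4.53 alone, and its coculture call was lost in 7 alternative settings (adjusted p 0.0601 to 0.523).

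Differences were spread unevenly over the chromosomes. On chromosome 13, 53% of 236 genes were higher in INA-6 and 12.7% lower, with a median difference of 0.52. On chromosome 18, 8.5% of 200 genes were higher and 56.5% lower, with a median of -0.55. Genes on chromosomes 14 and 8 had medians of 0.25 and 0.22, and those on chromosomes 4, 22 and 21 had medians of -0.29, -0.29 and -0.27. In cells alone, where the median of all genes was -0.34, chromosome 13 had a median of -0.01 and chromosome 18 of -0.59. DNA copy number was not measured here.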

How the data were processed

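The data were single-channel Affymetrix U133 Plus 2.0 arrays, 12 in all, in 6 groups of 2. The authors deposited 1 linear intensity per probe set (54675). Per the submitters' processing notes the values come from MAS5, while the series text names another program, and which one made them was not settled. Samples were grouped by the titles in the labels. Probe sets were named through the platform annotation (41091 with 1 gene symbol, 1801 with several, 11721 with none), and only those with 1 symbol were used. A probe set was kept if it lay above its array's median on at least 2 of the 6 coculture arrays. Where a gene had several probe sets left, the one with the highest mean stood for it. No further normalization was applied. Values were analysed as log2(intensity + 5) with limma 3.58.1 in R 4.3.3 (lmFit and eBayes, Benjamini-Hochberg over 13275 genes), with 1 mean per line and the 2 MM.1 lines weighted equally, on the 6 coculture arrays, on the 6 arrays of cells alone, and on all 12 for the difference between conditions. With 2 arrays per group the number of arrays limits the precision. In simulated data of this comparison with 13275 genes, 50 genes were changed at each size, and 9 unchanged genes were called. Recovery was 28%, 56%, 84% and 96% for changes of 0.5, 1, 2 and 4 (log2). In the data 56.1% of genes were called, a far larger share than was changed in the simulation, which makes the adjustment of p less strict. These rates therefore do not give the recovery in the data. The members and gene lists were chosen with earlier results of these data known. Named genes were the 15 highest and 15 lowest differences called in both conditions, against both MM.1 lines, with arrays apart and probe sets of 1 sign, the 5 highest and 5 lowest among genes called both in coculture and for the difference between conditions, the 2 highest and 2 lowest called members of each list, and NR3C1. Replicate numbers were not taken to pair the samples, since same-numbered deviations did not correlate above 0.1 in every pair of groups. The alternatives were other offsets, filters, normalizations, probe set rules and sets of arrays, duplicates averaged, a replicate block, and each array left out.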

Additional observations from a re-analysis of the deposited data

Results flagged for a closer look

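For 18 named genes the difference between INA-6 and the MM.1 lines itself differed between coculture and cells alone by a 12-array limma fit. The values are the INA-6 minus MM.1 difference (log2) in coculture minus that in cells alone. The highest were DICER1 at 5.43, GIGYF1 at 5.26, N4BP2L2 at 5.15, SRGAP2 at 5.04 and ZNF292 at 5.02 (adjusted p = 9.85e-06, 0.000176, 9.85e-06, 3.22e-05 and 0.00306). The lowest were RPL39L at -5.60, SOCS3 at -5.22, NPR1 at -5.03, ENPP2 at -4.95 and FGFR2 at -4.93 (adjusted p = 0.00264, 0.000587, 0.000926, 0.000831 and 0.000271).

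Named list members with opposite calls in the 2 conditions were HES6, a Notch pathway factor, at 3.35, HDAC9, a histone deacetylase, at 2.81, and DERL3, an ER degradation factor, at 2.41. Those in the other direction were EIF4E, the cap-binding factor, at -2.30, FAS at -2.22, ODC1 at -1.92, RPS14 at -1.63 and RPS12 at -1.53, the last 2 being ribosomal protein genes. Another 78 of the 153 named genes passed the same test, 54 of them with the same call in both conditions. The ACTB 3′ to 5′ ratio ran in opposite orders in the 2 conditions, and its part in these values was not tested.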

How the results depend on the processing

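The 7451 calls in coculture became 3771 with all 12 arrays in 1 fit and 3094 with duplicates averaged; other alternatives reached up to 7672, and leaving out 1 array gave 5601 to 7424. Calls against both MM.1 lines, 5751, became 2551 with all 12 arrays, and 4235 to 5315 with 1 array left out. The 5647 calls in cells alone ranged from 3005 to 8119 with 1 array left out, at 3549 and 3341 without MM.1S replicate 1 or 2 and 3005 and 3225 without MM.1R replicate 1 or 2. For INA-6 alone the 2 arrays had r = 0.86. The 5814 calls for the difference between conditions ranged from 4029 to 8681. The same call in both conditions, 2857, an alternative set added after seeing the data, became 1883 with all 12 arrays, 1464 with duplicates averaged, 1807 to 3429 with 1 array left out, and 1807 and 1895 without MM.1R alone replicate 1 or 2. Same-numbered deviations correlated at -0.576 between MM.1S and MM.1R in coculture, but at 0.627 and 0.447 between the 2 conditions of MM.1R and of MM.1S. The numbers were therefore not taken as pairs. With a replicate block there were 6528 coculture calls, 4831 against both lines, 4728 alone, 5584 between conditions and 2316 the same in both. Of 153 named genes 148 kept their call. Such a block cannot take up deviations that run in opposite directions in MM.1S and MM.1R. The share of calls that were higher, 42.7%, was 46.6% with quantile normalization and 38.9% with arrays centred on their median, where the median of all genes was -0.08. Over all alternatives, values of named genes kept sign and call in 2576 cases and lost the call in 114. Of 34 list medians, 23 moved with only probe sets ending in _at, 19 with quantile normalization, 19 with the mean of all probe sets, 15 with centring and 13 with no filter, and the sign turned in 5, 3, 0, 1 and 1. In 4 cases the sign turned: CCDC80 (0.12), IL5RA (-0.30) and EIF4E (0.48) with only probe sets ending in _at, and HLA-DQA1 (-0.084) with the mean of all probe sets. The causes were not tested. The stricter filter left no T cell, NK cell and myeloid marker.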

Other observations

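Runs of at least 8 neighbouring tested genes with the same call were listed along each chromosome, with no test. Those given below are a part of the runs found. Over all genes 32.2% were called lower and 23.9% higher, and how many such runs these shares alone would give was not tested. On the X chromosome 10 genes from BEX1 to TCEAL1, small proteins of the BEX and TCEAL families, were all lower in INA-6, with a median difference of -1.36, and 4 had the same call in cells alone. On chromosome 12, 8 genes from PARP11 to NDUFA9 that include CCND2 were lower (median -1.29, 6 the same alone). On chromosome 18, where 56.5% of tested genes were lower, 9 genes from LAMA1 to PPP4R1 were lower (median -1.50, 5 the same alone).

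On chromosome 5, 9 genes from SLC22A5 to UQCRQ, among them the interferon regulatory factor IRF1, were lower (median -0.89), and 8 of them had the same call in cells alone. On chromosome 1, 8 genes from CD48 to NIT1, which include SLAMF7 and LY9, were lower (median -1.51), and 2 had the same call alone. Runs of higher genes included 10 genes from RASL11A to SLC7A1 on chromosome 13 (median 0.92, 4 the same alone), where 53% of tested genes were higher. They also included 9 genes from IMPA1 to CA13 on chromosome 8 (median 1.67, 2 the same alone). Neighbouring genes can share probe or annotation features, and copy number was not measured here.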
